A study of Mus musculus with 147 samples.

Results

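The RNA of 9 genes of pancreatic digestive enzymes was followed through 147 libraries of sorted mouse macrophages and blood monocytes. The genes were taken by name from a list of acinar cell products, and all 9 were found among the 50686 genes of the count tables. They are Prss2 (a trypsinogen), Ctrb1 (a chymotrypsinogen), Cela2a and Cela3b (pancreatic elastases), Cpa1 and Cpb1 (carboxypeptidases), Pnlip (the pancreatic triglyceride lipase), Clps (colipase, the cofactor of that lipase) and Cel (the bile salt-stimulated lipase). Sorted macrophages are not the cells that make these enzymes, so the question was where in the series this RNA stood, how high, and whether it differed with the treatments.

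In the refeeding experiment, 110 libraries came from mice fasted for 12 h and refed for 2 h, or from mice fasted for 12 h only, in 4 cohorts. There were 9 refed and 8 fasted libraries each of colonic macrophages, adipose tissue macrophages, microglia and monocytes, 7 refed and 6 fasted libraries each of islet macrophages and Kupffer cells (liver macrophages), and 8 of each of peritoneal macrophages. In the diet experiment, 37 libraries came from mice fed high-fat diet through 8 weeks and given streptozotocin at week 4, which kills the beta cells that make insulin (HFD_STZ), from mice on that diet alone (HFD) or from mice on normal chow (ND), in 8 cohorts. Their numbers, as HFD_STZ, HFD and ND, were 3, 4 and 4 for islet macrophages, 5, 4 and 5 for peritoneal macrophages and 4, 4 and 4 for microglia. The labels give no strain, sex or age. Cells were purified by flow cytometry with antibodies for each population, and polyA RNA was made into Smart-seq2 libraries, a full-length method for few cells. Input was 400 cells per library for all refeeding libraries and for the diet islet libraries, 100000 cells for the diet peritoneal libraries and 5000 cells for the diet microglia libraries. The labels do not say that each library is a separate mouse, so p-values measure the spread between libraries, and the islet libraries named 1_2 and 5_6 carry 2 replicate numbers each.

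Acinar cells fill most of the exocrine pancreas. They make digestive enzymes in very large amounts, mostly as inactive zymogens, and secrete them through the pancreatic ducts into the small intestine, where trypsin activates the others. The enzyme genes are driven together by the PTF1 complex, in which Ptf1a and Rbpjl bind a bipartite promoter site made of an E-box and a TC-box, and by partners such as Nr5a2. The islets of Langerhans, from which islet macrophages are isolated, lie inside this acinar tissue. The colon lies outside the pancreas, and its macrophages reside beneath an epithelium that is in contact with the gut content.

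The promoters of 4 members are printed because the members varied together across libraries and these 4 carry most of the PTF1 letters. Each is the 250 bases before the RefSeq start of the gene (assembly GRCm38.p6), written 5′ to 3′ on the strand of the gene, at chr6:41521526-41521775 on the plus strand for Prss2, chr4:141826006-141826255 on the minus strand for Cela2a, chr4:137430521-137430770 on the minus strand for Cela3b and chr2:28563404-28563653 on the minus strand for Cel. Capitals mark CACCTG (the E-box letters) or TTTCCC (the TC-box letters) on either strand, so that a match on the other strand reads CAGGTG or GGGAAA.
Prss2: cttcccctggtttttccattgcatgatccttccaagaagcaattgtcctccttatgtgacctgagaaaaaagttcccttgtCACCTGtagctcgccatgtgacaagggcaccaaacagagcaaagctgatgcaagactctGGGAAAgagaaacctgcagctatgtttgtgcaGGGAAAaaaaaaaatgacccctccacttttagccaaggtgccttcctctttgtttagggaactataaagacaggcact
Cela2a: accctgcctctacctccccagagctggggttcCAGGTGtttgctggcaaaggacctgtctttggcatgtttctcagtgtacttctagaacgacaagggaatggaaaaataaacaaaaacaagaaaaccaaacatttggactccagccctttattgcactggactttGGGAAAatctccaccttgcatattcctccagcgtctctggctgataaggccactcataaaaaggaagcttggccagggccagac
Cela3b: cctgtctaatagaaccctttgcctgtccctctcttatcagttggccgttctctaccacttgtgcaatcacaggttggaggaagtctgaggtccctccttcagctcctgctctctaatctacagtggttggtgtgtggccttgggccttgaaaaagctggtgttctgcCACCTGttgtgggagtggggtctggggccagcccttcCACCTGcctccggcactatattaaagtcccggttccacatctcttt
Cel: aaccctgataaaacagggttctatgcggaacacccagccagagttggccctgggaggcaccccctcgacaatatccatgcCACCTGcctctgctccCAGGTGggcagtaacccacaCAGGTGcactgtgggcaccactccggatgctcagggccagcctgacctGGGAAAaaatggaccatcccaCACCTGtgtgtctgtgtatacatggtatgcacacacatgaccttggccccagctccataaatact
The RefSeq promoter table held 8 of the 9 members, all but Clps. CACCTG stood in 5 of these 8 promoters and in 17.22% of all 32851 promoters of the table. TTTCCC stood in 5 of 8 and in 21.948% of all promoters. Prss2, Cela2a and Cel held both, 3 of 8 against 3.61% of all promoters, and Cela3b held CACCTG at 2 places, 83 and 46 bases before its start. Spacing was not part of this count, so a window with both need not hold the bipartite site. CACCTG and TTTCCC stood 218 and 84 bases before the start in Cela2a, and 169 and 110 or 78 in Prss2. The closest pair in Cel stood at 65 and 86 bases. Cel had 4 copies of CACCTG, the farthest 170 bases before the start. AAGGTCA, the letters of an Nr5a2 site, were found in Cel only among the 8, 28 bases before its start, and in 4.079% of all promoters. The motifs do not overlap one another. A match describes the letters of a window and is not a measured binding site, and a window without a match says nothing about the factor.

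The positions are those of GENCODE M21 on mm10, and each value counts reads in exons. On chromosome 6, Prss2 (ENSMUSG00000057163.3) spans 41521787 to 41525079 and Cpa1 (ENSMUSG00000054446.8) spans 30639218 to 30645363, both on the plus strand. On chromosome 4, Cela2a (ENSMUSG00000058579.5) spans 141814962 to 141826160 and Cela3b (ENSMUSG00000023433.8) spans 137420999 to 137430540, both on the minus strand. Ctrb1 (ENSMUSG00000031957.6) lies on chromosome 8 from 111686519 to 111691010, Cpb1 (ENSMUSG00000011463.5) on chromosome 3 from 20248264 to 20275733, Clps (ENSMUSG00000024225.5) on chromosome 17 from 28558149 to 28560766 and Cel (ENSMUSG00000026818.5) on chromosome 2 from 28555795 to 28563403, all on the minus strand. Pnlip (ENSMUSG00000046008.8) lies on the plus strand of chromosome 19 from 58652498 to 58681788. Some reads of 3 members cannot be assigned to them with certainty. Of the 50-base windows of Prss2, 7.83% occur also in other trypsinogen genes or pseudogenes (Prss1, Try4, Try5, Try10, Gm5409 and Gm5771). For Cela3b, 19.2% occur also in Cela3a, and for Cela2a, 15.6% occur also in Ctrc, whose exons overlap its own, as do those of Casp9 on the opposite strand. The other 6 members share no such window.

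Refeeding libraries held 7.92 to 27.32 M counts (M, 1e6) and diet libraries 11.35 to 34.47 M. Levels are CPM, the counts of a gene per M counts of its library, and the sum over the 9 members is called the summed level. Macrophage identity was checked on Ptprc, Csf1r, Cd68, Adgre1 and Lyz2. In colonic libraries these 5 genes summed to 13237 CPM in refed mice (range 8184 to 19677) and to 12451 CPM in fasted mice (6864 to 21272). In islet libraries of the refeeding experiment they summed to 10477 CPM in refed mice (9939 to 15236) and to 10086 CPM in fasted mice (9241 to 18263). Leukocyte RNA was therefore present in each of these libraries, beside the enzyme RNA.

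Colonic macrophage libraries carried by far the most enzyme RNA. The median summed level was 11865 CPM over 17 colonic libraries, with a range from 19.7 to 185786 CPM. It was 415 CPM over 13 islet libraries of the refeeding experiment (107.4 to 1024 CPM) and 53.3 CPM over 11 diet islet libraries (4.65 to 576 CPM). The other refeeding populations had medians of a few CPM, namely 5.66 CPM in peritoneal macrophages (0.160 to 499 CPM, n = 16), 3.44 CPM in adipose tissue macrophages (0.144 to 178 CPM, n = 17), 2.87 CPM in Kupffer cells (0 to 393 CPM, n = 13), 1.83 CPM in microglia (0.105 to 883 CPM, n = 17) and 1.89 CPM in monocytes (0.0612 to 84.7 CPM, n = 17). The ranges of populations next to each other in this order overlap throughout, and colonic and islet libraries overlap only through 1 colonic library, refed library 2 at 19.7 CPM. The diet peritoneal and diet microglia libraries both had a median of 0, with highest values of 7.63 CPM (n = 14) and 0.493 CPM (n = 12). Those 2 sets started from more cells than the others, and cell number and experiment cannot be told apart here. In bulk libraries, fewer cells of a type and less RNA per cell cannot be told apart either.

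**Figure D1:**
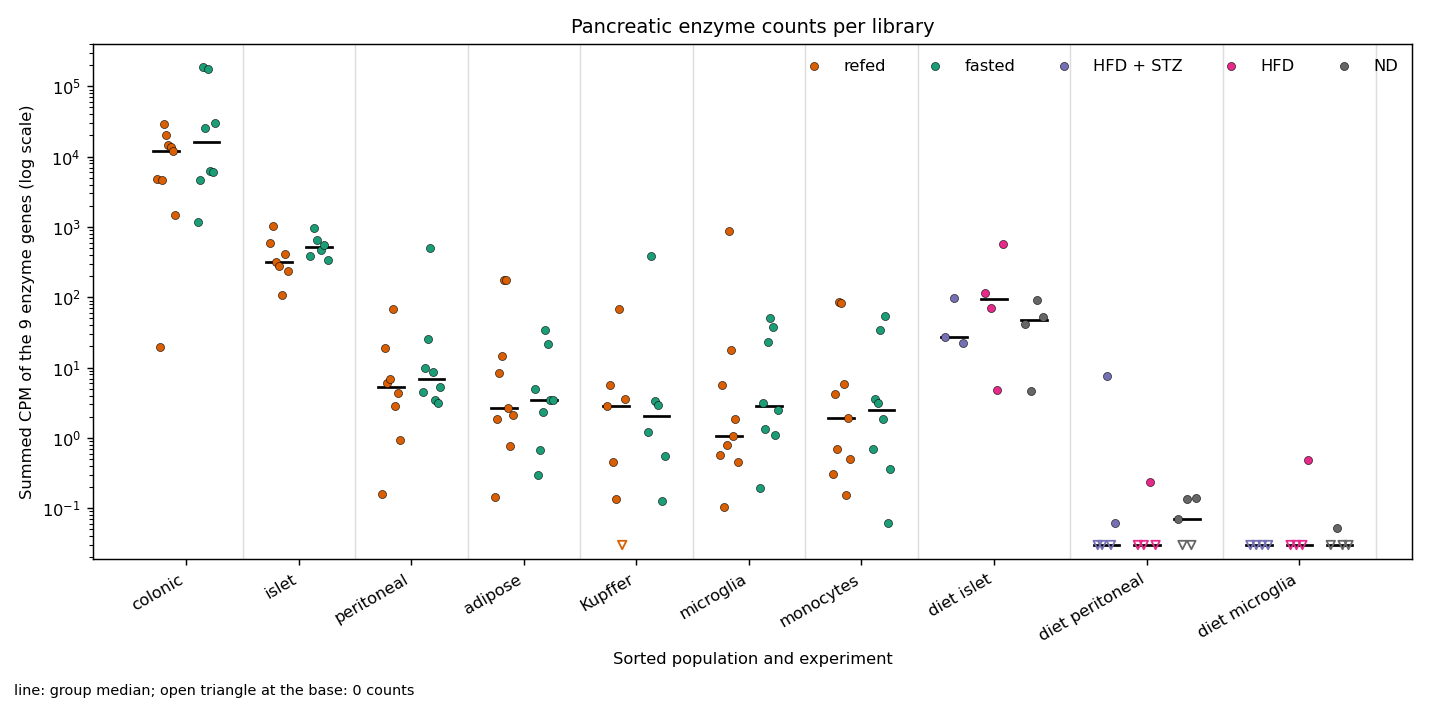
Summed level of the 9 pancreatic enzyme genes in each of the 147 libraries, in CPM on a log scale, by population and treatment, with points for libraries, lines for group medians and open triangles at the base for libraries without counts. Colonic libraries centre on 11865 CPM in refed and 16130 CPM in fasted mice, islet libraries on 314 and 512 CPM, and the diet peritoneal and microglia libraries lie near 0.

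Detection followed the same order. All 9 members exceeded 3 counts in 16 of 17 colonic libraries, in 11 of 13 islet libraries of the refeeding experiment and in 3 of 11 diet islet libraries. They did so in 4 of 16 peritoneal libraries of the refeeding experiment and in 9 of 64 libraries of adipose tissue macrophages, Kupffer cells, microglia and monocytes together. A trace was widespread, since all 9 members were at 0 in only 1 of those 64 libraries, Kupffer refed library 8. In the diet experiment, all 9 were at 0 in 8 of 14 peritoneal and in 10 of 12 microglia libraries. A count of 0 allows up to 3 counts of the library's total, and these limits cover counting error only.

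Among the proteases, Prss2 in colonic libraries had a median of 1497 CPM in refed mice (0.150 to 2013 CPM) and of 2307 CPM in fasted mice (207 to 32158 CPM). Ctrb1 had a median of 1468 CPM in refed (3.31 to 2341 CPM) and 3028 CPM in fasted mice (204 to 27696 CPM). The lowest value of both genes was that of refed library 2, and the highest were those of fasted libraries 3 and 5. The elastases had the same extremes, with Cela2a at a median of 937 CPM in refed (2.56 to 1654 CPM) and 860 CPM in fasted mice (80.4 to 20525 CPM). Cela3b stood at 599 CPM in refed (0.0752 to 807 CPM) and 767 CPM in fasted mice (73.5 to 10084 CPM). The refed and fasted ranges overlapped for each of these 4 genes.

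The carboxypeptidases, which trim the ends of peptides cut by the proteases above, were at similar levels. Cpa1 had a colonic median of 630 CPM in refed (3.61 to 1080 CPM) and 1019 CPM in fasted mice (59.5 to 16125 CPM). Cpb1 had a median of 582 CPM in refed (5.79 to 1083 CPM) and 575 CPM in fasted mice (29.5 to 17635 CPM). Of the lipid-digesting genes, Pnlip had a colonic median of 1539 CPM in refed (0.451 to 5998 CPM) and 2071 CPM in fasted mice (122 to 25971 CPM), and Cel had 643 CPM in refed (1.05 to 1806 CPM) and 1248 CPM in fasted mice (50.9 to 25167 CPM). Clps had 2131 CPM in refed (2.71 to 13213 CPM) and 3296 CPM in fasted mice (346 to 15884 CPM). In every case the groups overlapped, and the fasted range reached higher.

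A pair of fasted colonic libraries stood apart from the rest. In fasted library 3 (cohort 2) the 9 genes took 18.6% of all counts, and in fasted library 5 (cohort 3) 17.4%. In the other colonic libraries they took between 0.00197% (refed library 2) and 3.06% (fasted library 8). The macrophage list was at its colonic minimum, 6864 CPM, in fasted library 5. The colon epithelium list was at 1396 CPM there, the highest among fasted colonic libraries, against a fasted median of 342 CPM. Fasted library 3, with the higher enzyme sum, did not share this for Epcam, a gene of that list. Epcam was at 55.3 CPM in fasted library 3 and at 211 CPM in fasted library 5. It was at 728 CPM in refed library 8, where the 9 genes summed to 11865 CPM. In refed library 2, with the lowest enzyme sum, plasma cell RNA was at 103226 CPM, the highest of the colonic libraries. Its epithelial sum of 317 CPM was close to the refed median of 321 CPM.

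**Figure D2:**
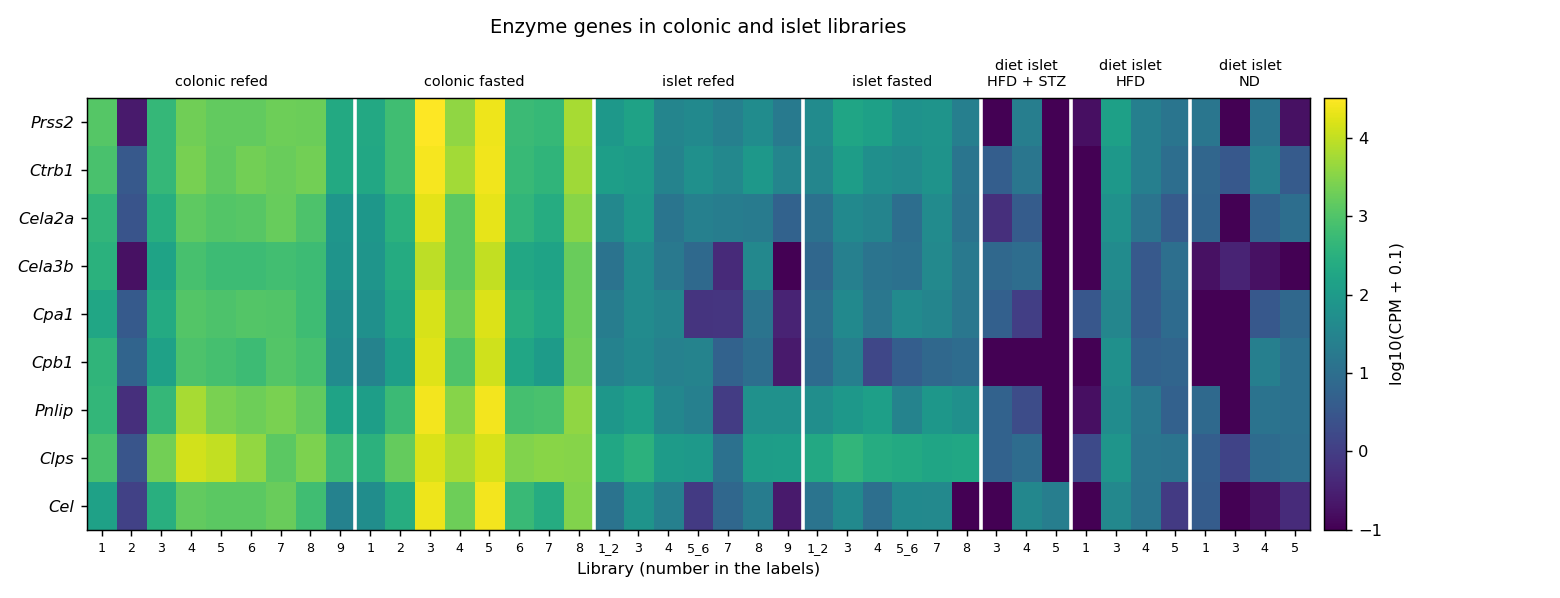
Level of each member, as log10 of CPM plus a small constant, in colonic and islet libraries, with genes down the page and libraries across, grouped by population and treatment. Colonic libraries are high in all 9 genes at once except refed library 2, with the brightest columns in fasted libraries 3 and 5, islet libraries are intermediate, and the diet islet libraries are patchy, with 8 members at 0 in HFD_STZ library 5.

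In islet macrophage libraries of the refeeding experiment, Clps led. It stood at 118.4 CPM in refed (11.4 to 347 CPM) and 217 CPM in fasted mice (172 to 417 CPM). Pnlip had 61.7 CPM in refed (0.838 to 129 CPM) and 71.4 CPM in fasted mice (28.9 to 130 CPM), and Cel had 12.7 CPM in refed (0.152 to 72.4 CPM) and 25.6 CPM in fasted mice (0 to 41.7 CPM). The highest values of all 3 lipid-digesting genes in refed mice came from library 3, and the groups overlapped.

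Of the islet proteases, Prss2 had a median of 40.6 CPM in refed (17.9 to 147 CPM) and 66.8 CPM in fasted mice (23.2 to 177 CPM). Ctrb1 had 57.1 CPM in refed (29.1 to 125 CPM) and 50.3 CPM in fasted mice (13.5 to 118.3 CPM). Cela2a was at 21.1 CPM in refed (5.21 to 87.7 CPM) and 21.8 CPM in fasted mice (9.49 to 45.0 CPM). These 3 genes were counted in every islet library of the refeeding experiment, and library 3, in cohort 2, was among the highest in either treatment. Cela3b had 12.7 CPM in refed (0 to 47.4 CPM) and 14.7 CPM in fasted mice (6.69 to 38.5 CPM). Cpa1 had 12.9 CPM in refed (0.253 to 45.2 CPM) and 23.4 CPM in fasted mice (10.2 to 43.5 CPM). Cpb1 had 26.7 CPM in refed (0.152 to 41.9 CPM) and 7.71 CPM in fasted mice (1.39 to 23.5 CPM). Cpb1 and Ctrb1 were the only members whose refed islet median exceeded the fasted one. Refed library 9 had 0.253 CPM of Cpa1, 0.152 CPM each of Cpb1 and Cel and no count of Cela3b while Clps was at 121 CPM, so that the members did not vary together there.

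The members can be set against one another only per length. In CPM per kb of exon, Clps came first in colonic libraries with a median of 4660, ahead of Prss2 at 1837 and Ctrb1 at 1671, and Cpb1 came last at 177. In islet libraries of the refeeding experiment the same 3 genes led, with Clps at 310, Ctrb1 at 62.6 and Prss2 at 59.1 CPM per kb, and Cpb1 was again last at 2.70. In the diet islet libraries Prss2 led with 16.5 CPM per kb, ahead of Clps at 13.9 and Ctrb1 at 7.36.

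The share of Clps in the summed level varied between libraries. Clps made 8.55% of the summed level in colonic fasted library 3 and 8.68% in fasted library 5, the libraries with the highest sums. In the other colonic libraries its share ran from 9.46% in refed library 7 to 55.6% in fasted library 7, and refed library 2, with the lowest sum, had 13.7%. In islet libraries of the refeeding experiment it ran from 10.6% in refed library 7, which had the lowest islet sum, to 56.03% in fasted library 8. In the 5 libraries of other populations above 100 CPM it was 3.68% in microglia refed library 5 (883 CPM in all), 12.8% in peritoneal fasted library 4 (499 CPM), 21.8% in Kupffer fasted library 2 (393 CPM), and 6.70% and 23.98% in adipose refed libraries 5 and 6 (177 and 178 CPM). In monocyte fasted library 4, Clps gave 95.5% of 33.9 CPM. Low shares were thus found at high and at low sums.

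**Figure D3:**
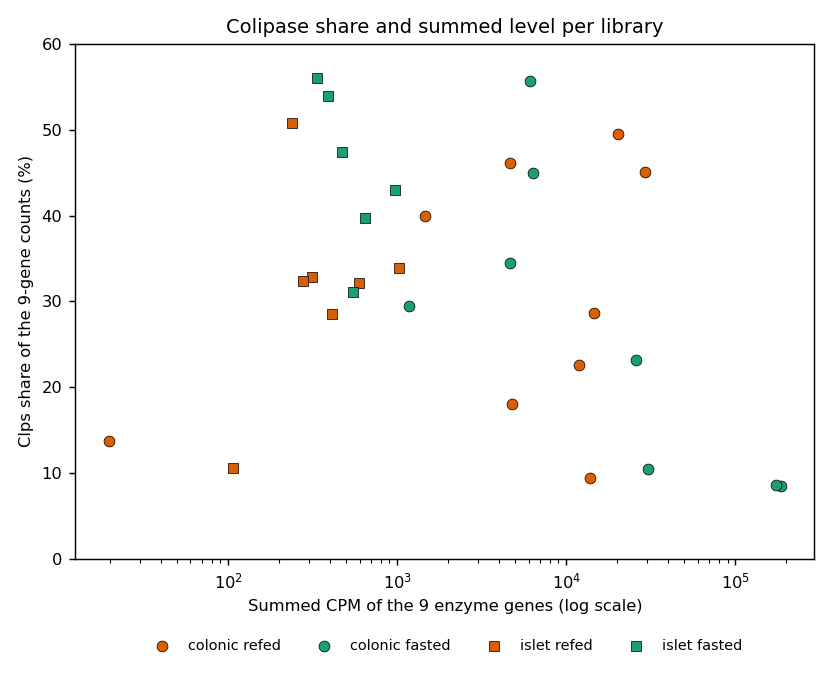
Share of the summed level taken by Clps, in percent, against the summed level in CPM on a log scale, in the colonic (circles) and islet (squares) libraries of the refeeding experiment, with refed in orange and fasted in green. Fasted colonic libraries 3 and 5, at the far right, have shares of 8.55% and 8.68%, while colonic fasted library 7 and islet fasted library 8 have 55.6% and 56.03%.

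Across libraries the members varied together most closely in the colon. Pearson correlations of log2(CPM + 1) between pairs of members, over 36 pairs, had a median of 0.97 in 17 colonic libraries, from 0.81 for Clps and Cpb1 to 0.997 for Cela3b and Ctrb1. In 13 islet libraries of the refeeding experiment the median was 0.57, from 0.09 for Pnlip and Cpb1 to 0.91 for Clps and Pnlip. In 11 diet islet libraries it was 0.68, from 0.04 for Cel and Cpa1. These values describe libraries in which all members share the same depth and total, and are not tests.

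The genes most like the members over the 110 refeeding libraries were other acinar products. Among 18753 candidates, the 10 with the highest correlation to the mean log2(CPM + 1) of the members all belong to a list of 28 further acinar enzymes and secreted proteins. Among them were Try4 (r = 0.983) and Try5 (0.967), which are trypsins, Sycn (0.980), a zymogen granule protein, 2210010C04Rik (0.978), Pnliprp1 (0.963), a relative of pancreatic lipase, Rnase1 (0.963), the pancreatic ribonuclease, Zg16 (0.954), a zymogen granule protein also made by goblet cells, Reg1 (0.952) and Ctrl (0.949), a chymotrypsin-like protease. Over the 37 diet libraries the same correlations ran from 0.686 for Ctrl to 0.935 for 2210010C04Rik. With ranks in place of values, 9 of these 10 stayed among the 10 highest. The pancreatic amylase genes Amy2a2, Amy2a3 and Amy2a4 had 0 counts in all 17 colonic libraries and Amy2b had a median of 5.26 CPM in refed and 7.45 CPM in fasted mice, and reads of these near-identical copies cannot be assigned with certainty.

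Factors that drive the enzyme genes were counted beside them in some libraries. In colonic libraries Ptf1a was counted in 3 of 9 refed (at most 5.73 CPM) and in 4 of 8 fasted libraries (at most 8.19 CPM). Rbpjl reached 21.7 CPM in refed and 36.6 CPM in fasted mice, the fasted maximum in library 3, and was at 0 in 4 refed and 2 fasted libraries. Summed with Bhlha15, Nr5a2 and Gata4, these factors had a colonic median of 28.9 CPM in refed (18.8 to 148 CPM) and 37.9 CPM in fasted mice (0.177 to 170 CPM). The sum is not particular to acinar RNA. In Kupffer cells, Gata4 alone had a median of 15.9 CPM in refed and 47.1 CPM in fasted mice. In colonic refed library 1 and fasted library 2, Bhlha15 was at 66.2 and 59.2 CPM with Ptf1a and Rbpjl at 0. Jchain, a plasma cell gene, was at 15741 and 10598 CPM there. In refed library 2, Bhlha15, which plasma cells also make, was at 23.6 CPM, beside 19.7 CPM for the 9 enzymes together. In the 13 islet libraries of the refeeding experiment Ptf1a, Bhlha15, Nr5a2 and Gata4 were at 0 throughout, and Rbpjl was at most 0.29 CPM. In the 11 diet islet libraries Ptf1a was at 0 throughout, and Rbpjl was at 26.5 CPM in HFD_STZ library 4 and at 0 in the others. Bhlha15 was at 19.3 CPM in HFD library 5 and at 13.98 CPM in ND library 5, where Jchain, a plasma cell gene, was at 1742 and 938 CPM.

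Markers of other cells differed between the populations that carried enzyme RNA. Islet endocrine genes (10, hormones and secretory proteins) summed in colonic libraries to 0.55 CPM in refed (0 to 10.01 CPM) and 0.95 CPM in fasted mice (0 to 5.95 CPM), with Pyy and G6pc2 at 0 in all 17. In islet libraries of the refeeding experiment they summed to 1896 CPM in refed (587 to 2878 CPM) and 1203 CPM in fasted mice (916 to 3112 CPM). Duct genes (7) summed in colonic libraries to 65.1 CPM in refed (13.04 to 1275 CPM) and 75.99 CPM in fasted mice (4.21 to 389 CPM), with Onecut1 at 0 in all 17, and had islet medians of 0 CPM in refed and 0.09 CPM in fasted mice. The colon epithelium list (10 genes) stood at 321 CPM in refed (106.7 to 2950 CPM) and 342 CPM in fasted colonic libraries (54.5 to 1396 CPM). Small intestine and Paneth cell genes (8) stood at 499 CPM in refed (95.9 to 1689 CPM) and 472 CPM in fasted colonic libraries (121 to 769 CPM), and plasma cell genes (4) at 24708 CPM in refed (240 to 103226 CPM) and 7560 CPM in fasted ones (287 to 59610 CPM). The part of these other cells in the enzyme levels was not tested.

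The comparison between populations was made in fasted mice, over all 16114 genes tested, with monocytes as the population taken from blood. Fold changes are log2 values of edgeR's quasi-likelihood fit with cohort as a term, given with their standard error (SE), and p-values, in parentheses after each value, were adjusted by the Benjamini-Hochberg method over all genes. In monocytes of fasted mice the members had medians between 0.0613 CPM (Cpa1) and 0.305 CPM (Cela2a). None of the 9 passes the filter on low counts in fasted monocytes alone or in fasted peritoneal macrophages alone, so they entered the joint fit through the colonic and islet libraries, where they are high. The calls against monocytes are therefore given as a description and not as support, and the size of these fold changes depends on monocyte values near 0. All 9 members were higher in colonic macrophages than in monocytes at an adjusted p below 0.05. In that comparison 20.3% of all genes were called, 14.5% in the higher direction. For the proteases the log2 differences were 13.59 ± 2.00 for Prss2 (adjusted p = 1.22e-06), 13.38 ± 1.98 for Ctrb1 (1.41e-06), 13.42 ± 1.89 for Cela2a (5.46e-07) and 13.61 ± 1.95 for Cela3b (7.68e-07). Cpa1 was higher by 14.06 ± 1.95 (4.14e-07) and Cpb1 by 13.28 ± 1.93 (9.78e-07). Of the lipid-digesting genes, Cel was higher by 14.45 ± 2.23 (2.96e-06), Pnlip by 13.59 ± 2.01 (1.38e-06) and Clps by 11.74 ± 1.81 (3.02e-06). The fasted colonic and monocyte ranges did not overlap for any of the 9 genes. The share over all genes was not computed, here or below, so counts of ranges without overlap describe the members only. Without colonic fasted libraries 3 and 5, which stood apart, 9 of 9 were called higher, and the share of all genes called in that refit is not given here.

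All 9 members were also higher in islet macrophages than in monocytes, with the same limit. Here 17.4% of all genes were called, 9.69% in the higher direction. Pnlip differed by 8.07 ± 1.74 (SE, adjusted p = 0.000673), Clps by 7.53 ± 1.59 (0.000509), Cel by 7.74 ± 1.87 (0.0025), Cpa1 by 7.85 ± 1.67 (0.00054) and Cpb1 by 5.10 ± 1.56 (0.0183). Prss2 differed by 7.48 ± 1.69 (0.00115), Ctrb1 by 7.06 ± 1.65 (0.00166), Cela2a by 6.77 ± 1.58 (0.00167) and Cela3b by 7.49 ± 1.69 (0.00112). With the replicate number as a block in place of cohort, 8 were called and Cpb1 was not. The fasted islet and monocyte ranges did not overlap for 7 members and overlapped for Cpb1 and Cel.

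Set directly against colonic macrophages, islet macrophages had lower levels of 8 members, with 8.98% of all genes called and 6.54% called lower. Cel does not pass the filter on low counts in fasted islet libraries alone, while the other members do. It entered this contrast through the colonic libraries, where it is high, so its call is a description and not support. Cpb1 was lower by the most, with a log2 difference of -8.18 ± 1.84 (SE, adjusted p = 0.00338). Prss2 was at -6.11 ± 1.68 (0.0175), Ctrb1 at -6.32 ± 1.71 (0.0152), Cela2a at -6.66 ± 1.66 (0.00868), Cela3b at -6.12 ± 1.65 (0.0154), Cpa1 at -6.21 ± 1.64 (0.013), Pnlip at -5.52 ± 1.67 (0.0303) and Cel at -6.71 ± 1.88 (0.0197). Clps did not pass, at -4.21 ± 1.49 (0.0658). The median of the members was -6.21, against -0.27 over all genes, and the ranges overlapped for Pnlip and Clps only. Without colonic fasted libraries 3 and 5, 7 of 9 were called lower, with a median of -5.37, and the share of all genes called is not given here. With the replicate number as a block in place of cohort, 1 of the 9 was called lower, with 781 of all genes called. Islet fasted libraries 1_2 and 5_6 drop out of this contrast too in that fit. Their loss and the block itself cannot be told apart here.

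In peritoneal macrophages against monocytes, Cela3b was the only member called, at a log2 difference of 4.45 ± 1.56 (SE, adjusted p = 0.0472), with 14.7% of all genes called and 8.04% called higher. This call rested on 1 library. Peritoneal fasted library 4 had 34.54 CPM of Cela3b, while the other 7 peritoneal fasted libraries had between 0 and 3.14 CPM, and monocytes had a median of 0.0854 CPM (0 to 2.87 CPM). Without that library the difference was 2.43 with an adjusted p of 0.338, and with refed in place of fasted libraries it was -0.54 with an adjusted p of 0.905. All 9 peritoneal ranges overlapped those of monocytes.

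The other acinar list of 28 genes gave the same order of populations, with 21 of its genes tested in each contrast. The limit on calls against monocytes holds for this list too. In colonic macrophages 21 of 21 were called higher than in monocytes, in islet macrophages 14 of 21, and in peritoneal macrophages 1 of 21, which was Zg16. In islet against colonic macrophages 19 of 21 were called lower, all but Prss3 and Try10, both trypsinogen genes. In the fit of refed and fasted islet libraries alone, 14 of the list passed the filter on low counts. Some of the 21 thus entered through other populations, and these calls too are a description.

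**Figure D4:**
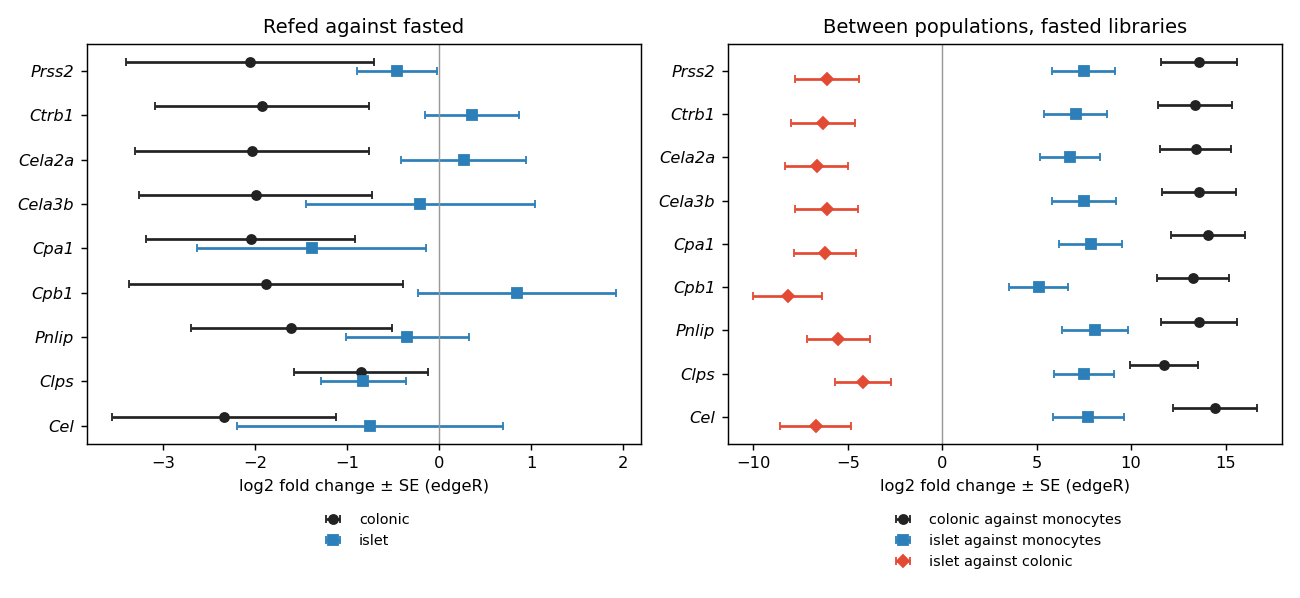
Log2 fold changes of the 9 members with their SE from edgeR, on the left for refed against fasted mice in colonic and islet macrophages and on the right between populations in fasted mice. On the right all 9 members lie above 0 for colonic and islet macrophages against monocytes, where monocyte values are near 0, and below 0 for islet against colonic macrophages, while on the left the colonic estimates are all negative and no member passed.

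No member passed the test for refeeding by edgeR. Most changes of log2 1.5 would be missed, since in simulated counts edgeR recovered 22% of them in colonic and 5% in islet macrophages. In colonic macrophages all 9 were tested and 0 called, as were 0 of all 11856 genes (0%), with 0 members and 307 genes at an unadjusted p below 0.05. The 9 estimates, refed against fasted, were all negative, with a median of -1.99 against -0.00 over all genes. They ran from -0.85 for Clps to -2.33 ± 1.22 for Cel (SE, adjusted p = 1.00). DESeq2 called 36 genes and 0 members, and limma with voom weights 3 genes and 0 members. Without the filter on low counts edgeR called 143 genes and all 9 members lower, at nearly the same estimates but smaller SE, such as -2.35 ± 0.22 for Cel (adjusted p = 7.81e-24). The median without fasted library 5 was -1.01 and without refed library 1 it was -3.14, so that its size rested on single libraries.

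Within each of the 4 cohorts the summed colonic levels of refed and fasted mice overlapped. Cohort 1 had 4749 and 19.7 CPM in refed mice, against 1172 and 4681 CPM in fasted mice. Cohort 2 had 4624 and 29281 CPM in refed, against 185786 and 25934 CPM in fasted mice. Cohort 3 had 20227 and 14664 CPM in refed, against 174381 and 6327 CPM in fasted mice. In cohort 1 the highest library was thus a refed one, and in cohorts 2 and 3 a fasted one, as in cohort 4. Cohort 4 had 13770, 11865 and 1457 CPM in refed, against 6116 and 30560 CPM in fasted mice. The refed mean was below the fasted mean in each cohort, at 2384 and 2927 CPM in cohort 1, 16953 and 105860 CPM in cohort 2, 17446 and 90354 CPM in cohort 3 and 9030 and 18338 CPM in cohort 4, and the fasted means of cohorts 2 and 3 hold libraries 3 and 5. Of the other acinar list, 21 genes were tested in colonic macrophages, 0 were called, and all 21 estimates were negative, with a median of -1.84.

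In islet macrophages all 9 members were tested for refeeding and 0 were called, as were 0 of 10059 genes (0%). At an unadjusted p below 0.05 there were 0 members and 243 genes, and DESeq2 called 50 genes and 0 members. Estimates were positive for 3 members and negative for 6, with a median of -0.34 against 0.03 over all genes. The smallest p was that of Clps, at -0.82 ± 0.46 (SE, adjusted p = 1.00). Clps had 192, 347, 102.97, 89.4, 11.4, 118.4 and 121 CPM in the 7 refed libraries, against 210, 417, 258, 224, 172 and 189 CPM in the 6 fasted libraries. The fasted values start above most refed values, and refed libraries 1_2 and 3 lie inside the fasted range. Those 2 are the islet libraries that are refed by title and treatment field but whose descriptions name fasting only. Without them the refed values (11.4 to 121 CPM, n = 5) lie below the fasted ones (172 to 417 CPM, n = 6), and the log2 difference is -1.33 ± 0.54 (SE, edgeR adjusted p = 1.00), which does not pass. Of the other acinar list, 14 genes were tested in islet macrophages and 0 called.

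Elsewhere the members were mostly too low to be tested for refeeding. In peritoneal macrophages 3 members were tested and 0 called, with 0.432% of all genes called, and Clps, with the smallest p, was at 0.70 ± 1.17 (SE, adjusted p = 0.926). The sign of that estimate turned with other settings, at -0.45 with the replicate block, -1.5 without cohort and -1.03 with voom weights. In adipose tissue macrophages 3 members were tested and 0 called, as were 0 of 10924 genes (0%, with 564 genes and 0 members at an unadjusted p below 0.05 and 1.07% of genes called by DESeq2). In monocytes, microglia and Kupffer cells 0 members passed the filter on low counts. Changes there were not detectable at this depth.

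High values outside the colon and the islets came from single libraries, many of them in cohort 3. Of the 80 refeeding libraries outside both tissues, 5 exceeded a summed level of 100 CPM, against 13 of 13 islet libraries. They were microglia refed library 5 at 883 CPM, peritoneal fasted library 4 at 499 CPM, Kupffer fasted library 2 at 393 CPM and adipose refed libraries 5 and 6 at 177 and 178 CPM. All 9 members exceeded 3 counts in each of these libraries except adipose refed library 6, where 6 did. Microglia refed library 5 had 195 CPM of Prss2 and 32.5 CPM of Clps. Microglia fasted library 5 differed, with 28.1 CPM of Cpa1, 10.3 CPM of Pnlip and 10.2 CPM of Cela3b while Prss2, Cpb1 and Cel were at 0.

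Cohort 3 held much of this RNA. In the 64 libraries of adipose tissue macrophages, Kupffer cells, microglia and monocytes, the summed level had a median of 2.37 CPM in cohort 1, 2.64 CPM in cohort 2, 44.2 CPM in cohort 3 and 1.08 CPM in cohort 4, with 16, 16, 12 and 20 libraries. There were no Kupffer libraries in cohort 3. In adipose tissue macrophages the cohort 3 libraries lay between 21.3 and 178 CPM, above the 14.5 CPM that no other cohort exceeded. In microglia the cohort 3 libraries lay between 17.99 and 883 CPM, a range that holds 1 library of another cohort, fasted library 4 of cohort 2 at 23.3 CPM, and the medians of cohorts 1, 2 and 4 were 1.87, 1.07 and 1.10 CPM. In monocytes the cohort medians were 2.12, 18.5, 30.3 and 0.363 CPM in cohorts 1 to 4. Colonic libraries were highest in cohort 2, with medians of 2927, 27607, 17446 and 11865 CPM in cohorts 1 to 4. The islet medians were 493.4, 810, 374 and 338 CPM, and the peritoneal medians 7.16, 25.5, 7.76 and 3.16 CPM, also with cohort 2 highest. The labels name the cohorts only by number, and what the libraries of a cohort shared was not tested.

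**Figure D5:**
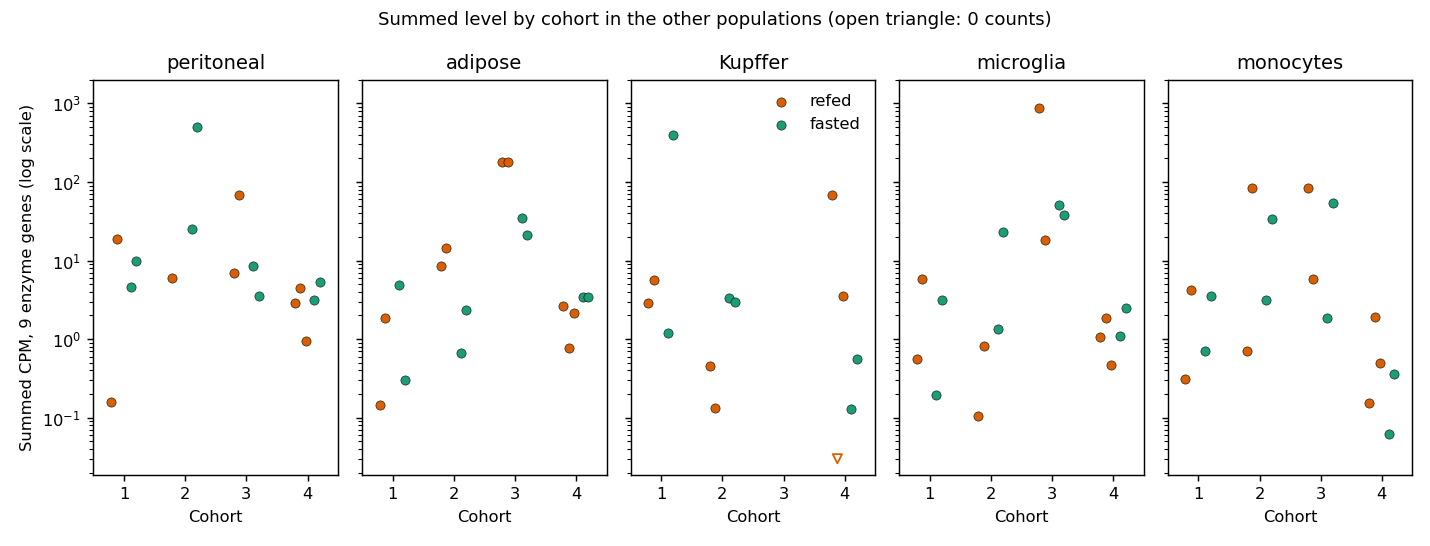
Summed level of the 9 members in each library of the refeeding populations other than colonic and islet, in CPM on a log scale, by cohort 1 to 4, with refed libraries in orange, fasted libraries in green and a triangle for a library without counts. In adipose tissue macrophages the cohort 3 libraries lie highest, at 21.3 to 178 CPM, and in microglia they lie at 17.99 to 883 CPM, while the highest peritoneal library, at 499 CPM, belongs to cohort 2.

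In the diet experiment the islet libraries had the highest median summed level, 53.3 CPM against 0 in peritoneal macrophages and in microglia, and the lowest islet library (4.65 CPM) lay below the highest peritoneal one (7.63 CPM). The summed level was 27.3, 97.6 and 22.3 CPM in HFD_STZ libraries 3, 4 and 5, 4.85, 576, 116.8 and 70.0 CPM in HFD libraries 1, 3, 4 and 5, and 42.3, 4.65, 91.5 and 53.3 CPM in ND libraries 1, 3, 4 and 5. HFD library 3 was the highest and carried all 9 members, from 33.9 CPM of Cpa1 to 134 CPM of Prss2, while ND library 3, of the same cohort, was the lowest. The 3 groups overlapped.

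Single members came and went between diet islet libraries. Cpb1 was at 0 in all 3 HFD_STZ libraries, against 0, 58.4, 5.19 and 6.24 CPM in HFD and 0, 0, 23.7 and 11.02 CPM in ND libraries. Prss2 had 0, 23.1 and 0 CPM in HFD_STZ, 0.0647, 134, 23.2 and 13.6 CPM in HFD and 14.1, 0, 13.5 and 0.0760 CPM in ND libraries. Cela3b had 7.31, 9.42 and 0 CPM in HFD_STZ, 0, 45.3, 3.38 and 9.93 CPM in HFD and at most 0.255 CPM in ND libraries. Each group of each of these genes had a library at or near 0, so that the groups overlapped. HFD_STZ library 5 had 22.3 CPM of Cel and no count of the other 8 members. Of the remaining members, Ctrb1 reached 14.8 CPM in HFD_STZ, 85.5 CPM in HFD and 24.9 CPM in ND libraries, and Clps reached 8.67 CPM in HFD_STZ, 72.9 CPM in HFD and 9.96 CPM in ND libraries.

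By edgeR 0 of 9 members and 0 of 12406 genes (0%) were called in each of the 3 diet contrasts of islet macrophages. At an unadjusted p below 0.05 there were 702 genes and 1 member for HFD_STZ against ND, 619 genes and 1 member for HFD_STZ against HFD, and 300 genes and 0 members for HFD against ND. The 1 member was Cpb1 in both cases, with an adjusted p of 0.85 against ND and of 0.956 against HFD. For HFD against ND the smallest p was that of Cela3b, at 6.71 ± 3.48 (SE, adjusted p = 1.00). Median log2 differences of the members were -1.90 for HFD_STZ against ND, -3.29 for HFD_STZ against HFD and 0.87 for HFD against ND, beside -0.15, -0.29 and 0.13 over all genes. Without HFD library 3 the HFD_STZ against HFD median was -1.40. In counts simulated for HFD_STZ against ND, edgeR recovered 2% of genes changed by log2 1.5 and 16% of those changed by log2 3. The lack of calls therefore does not show the absence of a change.

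DESeq2 called more in these islet libraries. For HFD_STZ against ND it called 594 of the 12406 genes, for HFD_STZ against HFD 374 and for HFD against ND 223. It called Cpb1 lower in HFD_STZ than in ND at -9.89 ± 2.61 (SE, adjusted p = 0.00635), and lower in HFD_STZ than in HFD at -10.17 ± 2.61 (adjusted p = 0.00568). Since Cpb1 was at 0 in all 3 HFD_STZ libraries, these fitted values are no bound on its fold change. It also called Prss2 lower in HFD_STZ than in HFD at -8.73 ± 2.27 (adjusted p = 0.00687). Prss2 was called higher in HFD than in ND at 7.64 ± 1.97 (adjusted p = 0.00987), as was Cela3b at 7.03 ± 1.99 (adjusted p = 0.0285). Each of these calls involves a group whose libraries include values of 0, and edgeR made none of them. The islet endocrine list stood at 2468 CPM in HFD_STZ (1892 to 3650 CPM), 4438 CPM in HFD (3474 to 6268 CPM) and 3061 CPM in ND libraries (1890 to 6119 CPM), and its part in these values was not tested. Of the other acinar list 12 genes were tested and 0 called in each diet contrast.

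The diet peritoneal and microglia libraries held too little enzyme RNA for a test, and 0 members passed the filter in either. The highest diet peritoneal library was HFD_STZ library 3 with 7.63 CPM, the only peritoneal diet library in which every member exceeded 3 counts. Across all genes, edgeR called 1.29% in peritoneal HFD_STZ against ND libraries and 0% in the other diet contrasts of these 2 populations.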

How the data were processed

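RNA was measured by Smart-seq2 in 147 libraries, and the deposited values are raw counts of reads per gene. Per the submitters' processing notes, the authors' tools were Trimmomatic 0.36, STAR 2.5.1a and featureCounts, with build mm10; annotation release, strand setting and multimapping were not stated in the labels. Of the 50686 identifiers, 50376 matched a GENCODE M21 symbol without the version, and identifiers without one held 0.0438% of counts. Depth was 7.92 to 34.47 M counts (M, 1e6) per library, and reads carry no molecular identifiers. Among 443 pairs of libraries of a group, 0 held identical counts. Descriptions of 4 refed libraries (islet 1_2 and 3, Kupffer 1 and 2) name fasting only, while titles and treatment fields say refed, and they were kept as refed.

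Each contrast was fitted over the whole table with edgeR 4.0.16 in R 4.3.3, with filterByExpr, TMM scaling, cohort as a term and the quasi-likelihood F test, called at an adjusted p below 0.05. The scripts were tested on simulated data, with genes changed by log2 1.5 or 3. They recovered 22% and 42% of these for colonic refeeding, 5% and 22% for islet refeeding and 2% and 16% for HFD_STZ against ND in islets. A contrast with 0 genes called thus does not show the absence of a change. DESeq2 1.42.0 and limma 3.58.1 (voom) were alternatives, beside other scaling, filters, covariates and omitted libraries. Named genes were all 9 members, with full statistics for those called and for the smallest p, and the 10 most similar genes, of which 1 is not reported here. The members and lists were chosen with earlier results of these data known. In diet islet and peritoneal libraries the replicate number is the cohort, so the cohort term was the block.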

Additional observations from a re-analysis of the deposited data

Results flagged for a closer look

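Single libraries stood far from the others of their group. The rule was a gap to the nearest library, as a share of the group's range, above Dixon's 95% value. Chance gives such a gap in about 1 in 20 groups only where values are normally distributed. The CPM values here are skewed, with many at or near 0, and 59.9% of the groups and measures tested were flagged. The flagged libraries are therefore a description, and a flag is not a rare event here. For the summed level these were microglia refed library 5 at 883 CPM, peritoneal fasted library 4 at 499 CPM, Kupffer fasted library 2 at 393 CPM, peritoneal refed library 6 at 68.03 CPM and Kupffer refed library 7 at 67.8 CPM. In the diet experiment they were peritoneal HFD_STZ library 3 at 7.63 CPM, microglia HFD library 16 at 0.493 CPM, peritoneal HFD library 4 at 0.240 CPM and microglia ND library 6 at 0.0527 CPM. All of them lay above the rest of their group. For microglia HFD library 16, peritoneal HFD library 4 and microglia ND library 6, every other library of the group was at 0, so that the gap is the whole range. These 9 sums come from groups in which most libraries had a few CPM or less.

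For single members in colonic and islet groups, Pnlip stood apart at 5998 CPM in colonic refed library 4. In islet refed library 3, Cela2a was at 87.7 CPM and Cel at 72.4 CPM, and in islet fasted library 3, Clps was at 417 CPM and Cpb1 at 23.5 CPM. Both of these islet libraries belong to cohort 2. In the diet islet libraries, Cpb1 was at 58.4 CPM and Cpa1 at 33.9 CPM in HFD library 3, Ctrb1 at 24.9 CPM in ND library 4 and Cel at 3.86 CPM in ND library 1. The members share libraries, so these cases are not independent of one another.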

How the results depend on the processing

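For refeeding and diet, edgeR called 0 members under other scaling, covariates and omitted libraries, except that without the filter on low counts it called 9 in colonic macrophages. In diet islets, DESeq2 called 2 members and 223 of all genes for HFD against ND. It called 1 member and 594 genes for HFD_STZ against ND, and 2 members and 374 genes for HFD_STZ against HFD. In peritoneal macrophages against monocytes, members called went to 6 with DESeq2 and 9 without the filter, and to 0 with refed libraries, without cohort, with the replicate block and without peritoneal fasted library 4. Without cohort 3 they were 5, and the share of all genes called under these settings is not given here. The last 2 settings, and that without colonic fasted libraries 3 and 5, were chosen after seeing the data. The replicate block left 1 member called for islet against colonic macrophages, in a contrast to which islet fasted libraries 1_2 and 5_6 add nothing. Estimates that changed sign were Clps in refed against fasted peritoneal macrophages (-0.45 with the replicate block, -1.5 without cohort, -1.03 with voom) and Cela3b in peritoneal macrophages against monocytes with refed libraries (-0.54). The cause was not tested. Over all genes, DESeq2 called 36 colonic, 50 islet and 342 peritoneal genes for refeeding, where edgeR called 0, 0 and 49 (143, 8 and 312 without the filter). In diet islets DESeq2 called 594 (HFD_STZ against ND), 374 (HFD_STZ against HFD) and 223 genes (HFD against ND), where edgeR called 0.

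Leaving out each library kept members called at 0 for refeeding and diet. Median log2 differences then ran from -3.14 to -1.01 in colonic, -0.61 to 0.20 in islet and -0.10 to 0.89 in peritoneal macrophages for refeeding, and in diet islets from -4.55 to -0.59 (HFD_STZ against ND), -4.55 to -1.40 (HFD_STZ against HFD) and -0.06 to 3.83 (HFD against ND). This was not run for adipose tissue macrophages, monocytes, microglia and Kupffer cells of the refeeding experiment. Diet islet medians of the summed level ran from 24.8 to 62.4 CPM (HFD_STZ), 70.0 to 116.8 CPM (HFD) and 42.3 to 53.3 CPM (ND). Same-numbered refed and fasted libraries did not deviate together (mean correlation 0.065 over 8 colonic and 0.068 over 6 islet pairs). They were not taken as pairs. Same-numbered fasted libraries of different populations did not either (0 of 8 colonic, 4 islet and 8 peritoneal pairs with monocytes above 0.1). Fasted libraries of the same cohort with other numbers had mean correlations of -0.0068, 0.0075 and -0.0094 in these comparisons. The check therefore cannot tell whether a number marks the same mouse across populations, and the replicate block was kept as an alternative. In the titles of the refeeding libraries, a running number goes through the populations in turn within each treatment and replicate number. The labels do not say that such libraries come from the same mouse. With cohort as the term, the contrasts between populations take them as independent within a cohort. Refed in place of fasted libraries gave 9 members higher in colonic and in islet macrophages than in monocytes, with the share of all genes called not given here. Low counts limit all populations outside colon and islets.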
